A study of Rattus norvegicus with 24 samples.

Results

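The Notch pathway genes of the rat urethra were described in 24 urethral samples taken after simulated vaginal delivery (SVD). They are 10 genes: the receptors Notch1, Notch2 and Notch3, the ligands Dll1, Dll4, Jag1 and Jag2, and the target genes Hes1, Hey1 and Heyl. Members were found by gene symbol in a table of 32883 genes, in which each of the 10 symbols stood once, and 9 of the 10 passed the filter on low values. All rats were wild-type young adult virgin Sprague-Dawley females in which SVD had been produced by crushing the pudendal nerve and distending the vagina. They were then given saline (controls), allogeneic mesoangioblasts (MABs-allo) or the same kind of cells overexpressing VEGF (MABs-allo-VEGF) into the aorta, and the urethra was taken at 3d or 7d. The 6 groups held 4 samples each, and the design text counts as many rats as samples.

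Mesoangioblasts are vessel-derived progenitor cells. Those injected here had been grown from the hind limb muscle of a donor rat, carried a lentiviral eGFP and luciferase reporter under the CMV promoter and, for MABs-allo-VEGF, a second vector expressing VEGF with a truncated CD34 under the SFFV promoter. Donor cells and host tissue are both rat, so their RNA cannot be told apart in these data. In bulk tissue, fewer cells of a type and less RNA per cell cannot be told apart either. For 7d, the labels mark 2 MABs-allo-VEGF urethras, replicates 6 and 7, as recovered.

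Notch receptors are cell surface proteins that are cut when a Delta-like or Jagged ligand on a neighbouring cell binds them. The freed intracellular part enters the nucleus, joins the DNA-binding protein RBPJ and switches on Hes and Hey genes, which encode transcriptional repressors. The pathway is known for sprouting and arterial identity in vessels, for keeping muscle satellite cells quiescent, and for the layering of epithelia. Notch1 and Notch2 are used by many cell types, Notch3 mainly by mural cells of vessels, Dll4 by endothelium and Jag1 by endothelium, smooth muscle and basal epithelium.

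The promoters of Hes1, Notch1, Jag1 and Notch3 are shown because Notch3 was called between treatments, Jag1 and Hes1 between days, and Notch1 had values that followed those of Hes1 and Jag1 over the samples. Each is the stretch from 250 bases before to 50 bases after the transcript start, 5′ to 3′ on the strand of the gene, as RefSeq gives it for the build GRCr8. All 4 genes lie on the minus strand, Hes1 at chr11:84212996-84213295, Notch1 at chr3:29721564-29721863, Jag1 at chr3:144894834-144895133 and Notch3 at chr7:11834536-11834835. Heyl was also called between days, in MABs-allo-VEGF, but its promoter is not shown. Capitals mark matches on either strand to the RBPJ core TGGGAA (reverse complement TTCCCA) and to the N box CACNAG (reverse complement CTNGTG), a motif known for binding Hes repressors.
Hes1 promoter: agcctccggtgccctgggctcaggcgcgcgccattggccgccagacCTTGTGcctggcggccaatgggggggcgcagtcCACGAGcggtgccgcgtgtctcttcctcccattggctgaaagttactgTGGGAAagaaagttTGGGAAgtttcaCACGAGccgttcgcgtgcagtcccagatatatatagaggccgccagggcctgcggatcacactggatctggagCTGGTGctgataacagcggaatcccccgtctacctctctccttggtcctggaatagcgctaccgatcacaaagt
Notch1 promoter: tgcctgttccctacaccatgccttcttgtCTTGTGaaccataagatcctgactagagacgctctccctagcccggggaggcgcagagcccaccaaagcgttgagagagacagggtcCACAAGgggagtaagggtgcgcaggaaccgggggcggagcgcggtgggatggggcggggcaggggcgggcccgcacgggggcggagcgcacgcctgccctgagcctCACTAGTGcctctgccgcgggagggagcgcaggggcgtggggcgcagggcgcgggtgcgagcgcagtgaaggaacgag
Jag1 promoter: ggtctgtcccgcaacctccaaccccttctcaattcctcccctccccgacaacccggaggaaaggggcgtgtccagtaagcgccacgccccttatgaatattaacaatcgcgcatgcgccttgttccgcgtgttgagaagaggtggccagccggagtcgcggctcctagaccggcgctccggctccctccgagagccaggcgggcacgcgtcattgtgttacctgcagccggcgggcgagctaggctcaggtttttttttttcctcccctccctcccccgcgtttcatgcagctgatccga
Notch3 promoter: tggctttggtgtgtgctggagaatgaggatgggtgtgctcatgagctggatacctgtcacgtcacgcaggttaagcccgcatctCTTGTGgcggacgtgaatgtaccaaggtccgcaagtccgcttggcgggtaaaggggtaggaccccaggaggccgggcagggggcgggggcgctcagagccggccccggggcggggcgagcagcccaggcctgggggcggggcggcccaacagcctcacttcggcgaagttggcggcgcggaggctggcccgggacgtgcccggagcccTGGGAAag

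The Hes1 promoter held the RBPJ core at -123 and at -109, counted from the first base of the transcript as 0, and the first of these continued to the longer form GTGGGAA. It also held 4 matches to the N box. The Notch3 window held 1 RBPJ core, at 42 bases after the start, and 1 N box. Notch1 had 4 N boxes, of which those at -28 and -26 overlap, and no RBPJ core, and the Jag1 window held neither motif. Of 33469 rat promoters of the same length, 25.7% held the RBPJ core, 6.29% the longer form and 43.1% the N box. Among the other members, the Dll1 promoter held 2 RBPJ cores, and those of Notch2, Heyl and Jag2 (2 entries) held none. None of these windows, that of Dll1 included, held an N box. These matches describe the letters of the windows only.

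Normalized gene counts are reads per gene divided by a size factor per sample. Samples held 2170695 to 10166052 reads. The median number of reads was 3452557 in MABs-allo and 3928424 in MABs-allo-VEGF at 3d, against 4925904 in saline at 3d, so the cell-treated samples of 3d were the shallower ones. A gene was called changed (DEG) in limma with a Benjamini-Hochberg adjusted p below 0.05 over all genes tested and a log2 fold change beyond 1. Smooth muscle markers (Acta2, Myh11) and epithelial markers (Krt5, Upk3a) of the urethra were detected in all 24 samples, while the basal keratin Krt14 was at 0 in 3. The library of saline replicate 6 at 3d lay at 54.6 on the first principal component (70.7% of the variance), against -52.3 to -6.43 for the other saline samples of 3d. MABs-allo-VEGF replicate 4 at 3d lay at 0.702, against 57.3 to 75.2 for its group. Results that depend on these libraries are given with and without them. They were picked on an axis that separates cell-treated from saline samples at 3d, so leaving them out widens those differences by construction, and p-values without them are too small and give no independent support. Summed over the 8 epithelial markers, normalized counts were 39975 to 156078 in 22 samples, but 3218 in replicate 8 of saline and 4217 in replicate 2 of MABs-allo-VEGF, both of 3d.

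**Figure D1:**
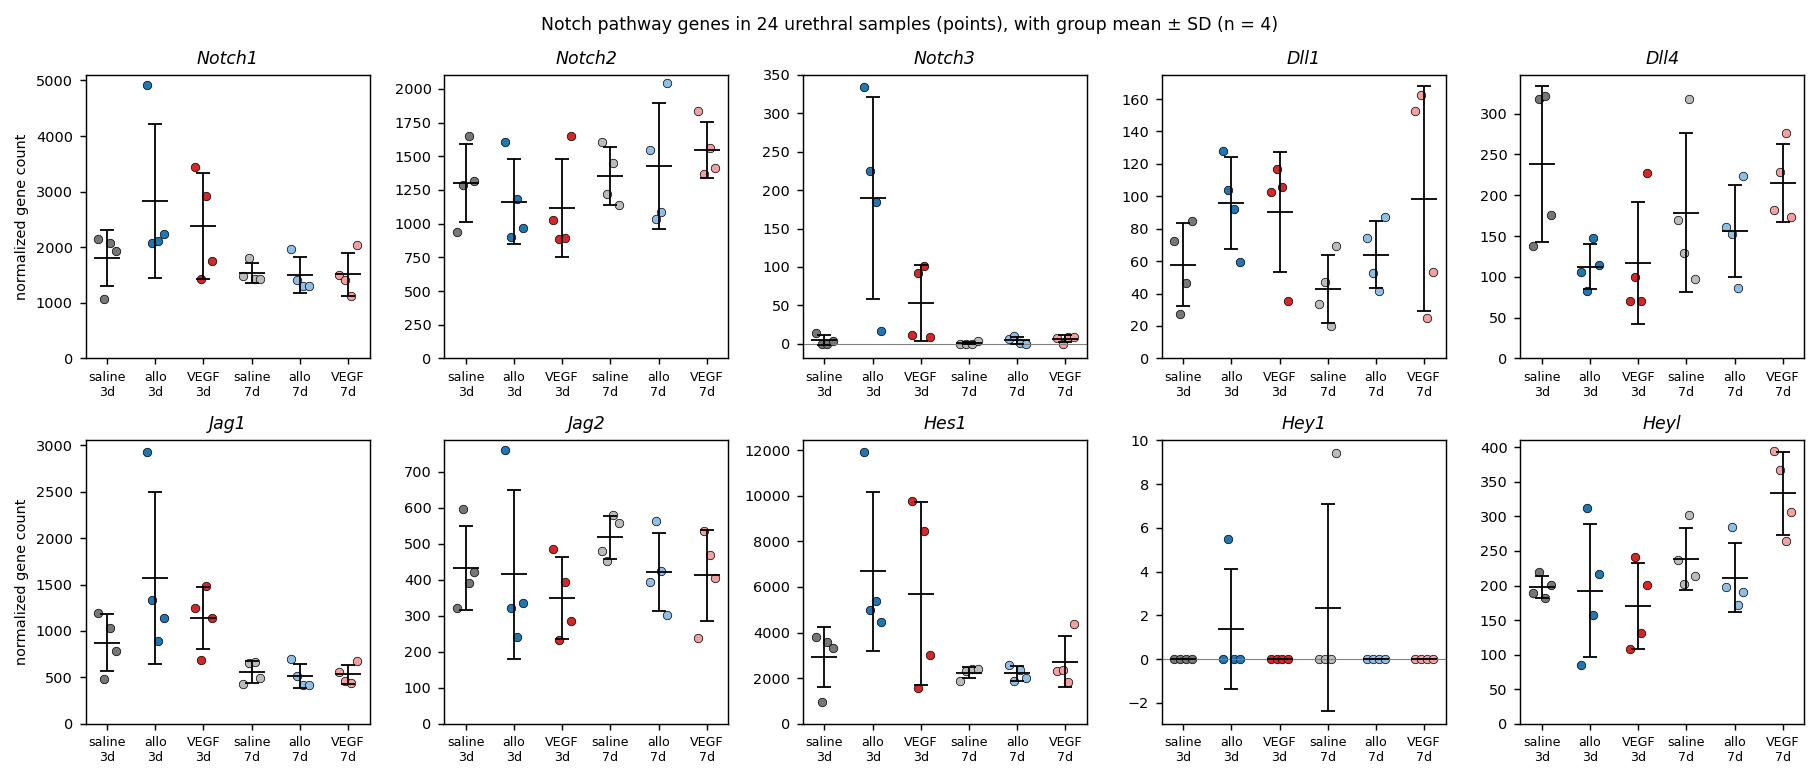
Normalized gene count (vertical axis, linear) of the 10 Notch pathway genes in the 6 groups (allo is MABs-allo and VEGF is MABs-allo-VEGF). Points are samples in replicate order, and bars are mean ± SD (n = 4 per group). Notch3 lay above 180 in 3 MABs-allo samples of 3d and below 14 in all saline and 7d samples, and Hes1 reached 11907 in MABs-allo at 3d.

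Of the receptors, Notch3 was the member that rose in MABs-allo vs saline at 3d. Its normalized counts were 13.8, 0, 0 and 3.52 in saline and 334, 224, 185 and 16.3 in MABs-allo. The groups did not overlap, although MABs-allo replicate 4 lay close to the highest saline sample, replicate 6. Its log2 fold change was 5.45 (SE 1.14, adjusted p = 0.00717, limma), and Notch3 was 1 of 9 members tested that was called, where 12.3% of all 16287 genes were. Behind these values stood 111 reads in MABs-allo and 5 in saline, and the ratio per normalized read was 40.0 with an exact 95% counting interval of 16.6 to 126, which covers counting error only. Saline replicate 6 held 4 of the 5 saline reads, and without the 2 libraries that stand apart the ratio was 147.5 (25.9 to 5879), from 111 reads against 1. The fitted fold depends on the pseudocount of 1. With only the saline and MABs-allo samples of 3d in the fit the value was 5.45 with an adjusted p of 0.0608, which misses the threshold.

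In MABs-allo-VEGF at 3d, Notch3 was at 10.8, 91.7, 101 and 8.91 normalized counts. A pair of samples was thus above every saline sample, and the other two lay within the saline range. Against saline the value was 3.50 (SE 1.14, adjusted p = 0.128, limma), and 35 against 5 reads gave a ratio of 10.7 (exact 95% counting interval 4.16 to 34.9), against 53.7 (8.99 to 2185) from 33 and 1 reads without the 2 libraries. With the 2 libraries that stand apart on the principal component left out, it was 4.86 with an adjusted p of 0.00962, and it was also called without saline replicate 6 alone (adjusted p = 0.0286) or without MABs-allo-VEGF replicate 4 alone (adjusted p = 0.038). MABs-allo-VEGF against MABs-allo at 3d gave -1.94 (SE 1.14, adjusted p = 0.856).

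At 7d Notch3 was near the limit of detection in every group, with at most 3 reads in any of the 12 samples. It stood at 0 to 3.14 normalized counts in saline, 0 to 9.93 in MABs-allo and 0 to 9.46 in MABs-allo-VEGF. In MABs-allo it was therefore higher at 3d than at 7d, with 111 against 6 reads (ratio 44.0, exact 95% counting interval 19.6 to 122), a log2 fold change of 5.03 and an adjusted p of 0.00205 (limma). In MABs-allo-VEGF the same comparison gave 35 against 8 reads (ratio 7.61, exact 95% counting interval 3.47 to 19.0) and 2.57 on the log2 scale (SE 1.14, adjusted p = 0.115). In saline it gave 5 against 1 read and 1.0 (SE 1.14, adjusted p = 0.693). The interaction of MABs-allo with day was 4.03 for Notch3 (SE 1.61, adjusted p = 0.283), so a different effect at 3d and 7d was not called. Both interactions with day called 0 of 9 members with limma, DESeq2 and edgeR, with 1 member each at an unadjusted p under 0.05 (Notch3 for MABs-allo and Dll4 for MABs-allo-VEGF). Over all genes limma called 0%, and 13.6% and 8.23% had an unadjusted p under 0.05 with limma.

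Mural cells are the cells best known to use Notch3. None of the 6 mural markers was called in MABs-allo vs saline at 3d, and their summed level was 5659 to 9417 normalized counts in MABs-allo and 6353 to 11650 in saline, with no marker at 0 in any sample. Markers of other cells did move in that comparison. All 4 satellite cell and myoblast markers and all 5 of striated fibres had a positive log2 fold change (medians 1.21 and 1.45), with Pax7 and Tnnt3 called. All 7 macrophage and all 5 fibroblast markers had a negative one (medians -1.77 and -1.59), with 3 and 2 called. Without saline replicate 8 the calls in these 4 lists were 0, 0, 1 and 0. Their part in the Notch3 values was not tested. The 3 genes most like Notch3 over the 24 samples, by Pearson correlation of log2(normalized count + 1), were Nfic (0.93), Ssbp2 (0.90) and Arhgap42 (0.90). The 24 samples share the 6 groups, so these values describe a common pattern over groups. MABs-allo at 3d was the group with the fewest reads by its median and with the highest mean of Notch3, and the part of depth in the result was not tested beyond the alternatives.

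Notch1 showed no called change with treatment. At 3d it was at 2145, 1066, 2084 and 1932 normalized counts in saline, at 4913, 2073, 2105 and 2235 in MABs-allo and at 3449.7, 1425, 2921 and 1754 in MABs-allo-VEGF. One MABs-allo sample, replicate 1, was far above the rest, and of the other three only replicate 4 lay above the saline range. Against saline the log2 fold change was 0.59 (SE 0.30, adjusted p = 0.173) in MABs-allo and 0.36 (SE 0.30, adjusted p = 0.554) in MABs-allo-VEGF. At 7d all 12 samples lay between 1120.3 and 2046. In MABs-allo Notch1 was higher at 3d than at 7d without overlap, by 0.83 (SE 0.30, adjusted p = 0.0368), which is below the fold required for a call. The group means fell in the order MABs-allo 3d (2832 ± 1389.5, SD, n = 4), MABs-allo-VEGF 3d (2388 ± 956), saline 3d (1807 ± 502), saline 7d (1536 ± 185), MABs-allo-VEGF 7d (1517 ± 387) and MABs-allo 7d (1500.2 ± 317), and each step was smaller than the larger SD of the neighbours it parts.

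Notch2 showed no called change with treatment or day. It ranged from 940.0 to 1651 normalized counts in saline, 903 to 1605 in MABs-allo and 883 to 1652 in MABs-allo-VEGF at 3d, and from 1036 to 2042 over the 12 samples of 7d. Group means ran from 1114 ± 365 in MABs-allo-VEGF at 3d to 1546 ± 211 in MABs-allo-VEGF at 7d (SD, n = 4), and all groups overlapped. The changes vs saline at 3d were -0.17 (SE 0.25) in MABs-allo and -0.24 (SE 0.25) in MABs-allo-VEGF. MABs-allo-VEGF at 3d against 7d gave -0.51 (SE 0.25, adjusted p = 0.144).

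Of the target genes, Hes1, a repressor that is among the first genes Notch switches on, had its highest group mean in MABs-allo at 3d. Replicate 1 of that group was the highest of the 24 samples, followed by replicates 1 and 3 of MABs-allo-VEGF at 3d. At 3d Hes1 was at 3808, 945, 3595 and 3339.6 normalized counts in saline. It was at 11907, 4995, 5373 and 4481 in MABs-allo and at 9771, 1575, 8455 and 3001 in MABs-allo-VEGF. All 4 MABs-allo samples lay above all 4 saline samples, while MABs-allo-VEGF split into a pair above and a pair below the highest saline value. In MABs-allo vs saline at 3d, 2 of 9 members (Notch3 and Hes1) were higher without overlap, where 9.44% of all genes were. The log2 fold change of Hes1 was 1.26 (SE 0.47, adjusted p = 0.0701, limma) in MABs-allo and 0.79 (SE 0.47, adjusted p = 0.389) in MABs-allo-VEGF, neither of them called. With the 2 libraries apart left out the MABs-allo value was 1.45 (adjusted p = 0.0443), and the call was also made without saline replicate 6 alone (adjusted p = 0.0445) or without MABs-allo-VEGF replicate 2 alone (adjusted p = 0.0382). These were the only 3 of 36 settings that called it, and neither DESeq2 nor edgeR did. MABs-allo-VEGF replicate 2 is in neither group compared and enters through the spread that the groups share.

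The lowest Hes1 values of 3d belonged to the samples with hardly any epithelial marker signal. Saline replicate 8, with Hes1 at 945 and Notch1 at 1066, and MABs-allo-VEGF replicate 2, with Hes1 at 1575 and Notch1 at 1425, were those with summed epithelial markers of 3218 and 4217. The same samples had the lowest smooth muscle sums of the 24 (23827 and 59083) and the highest endothelial sums (15447 and 14960). They thus differed from the rest in more than epithelium. Without these 2 samples, an alternative chosen after seeing the data, Hes1 at 3d gave 0.78 (SE 0.35, adjusted p = 0.18) for MABs-allo vs saline and 0.81 (SE 0.37, adjusted p = 0.755) for MABs-allo-VEGF vs saline. All 8 epithelial markers had a positive log2 fold change in MABs-allo vs saline at 3d, with a median of 1.33, and 1 of them, Krt14, was called. This rested on saline replicate 8, without which 7 of 8 were positive, 0 were called and the median was 0.05. The summed level was 39975 to 125928 in MABs-allo (median 50639) and 3218 to 71547 in saline (median 62266). The part of epithelium, or of other tissue makeup, in the Hes1 values was not tested further.

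**Figure D2:**
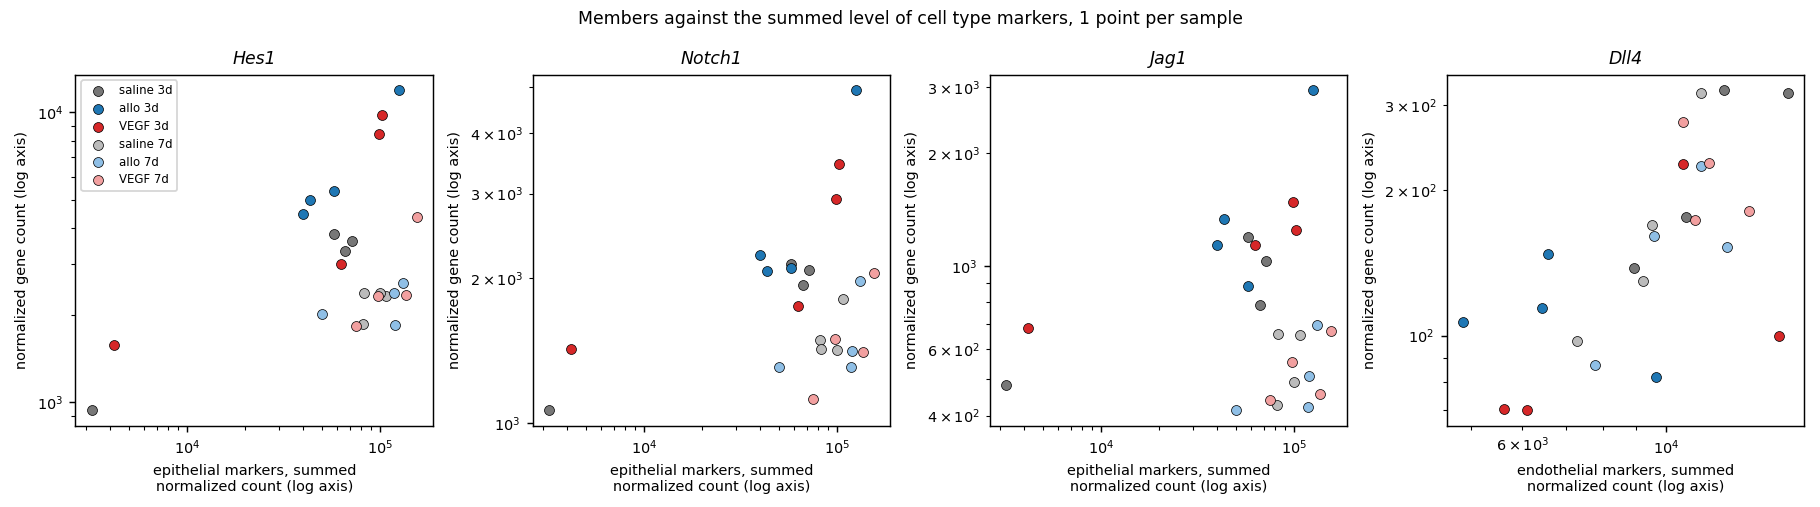
Hes1, Notch1 and Jag1 against the summed epithelial markers, and Dll4 against the summed endothelial markers (all axes logarithmic, normalized counts, 1 point per sample, colours for the 6 groups). The points at 3218 and 4217 on the epithelial axis are saline replicate 8 and MABs-allo-VEGF replicate 2 of 3d. The 12 samples of 7d have Hes1 at 1837 to 4372.

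Hes1 was higher at 3d than at 7d in MABs-allo. At 7d it was at 1860.3 to 2384 normalized counts in saline, 1854 to 2577 in MABs-allo and 1837 to 4372 in MABs-allo-VEGF, whose highest sample, replicate 12, stood apart from 2350.4 and below. In MABs-allo every 3d sample exceeded every 7d sample, and the log2 fold change of 3d against 7d was 1.49 (SE 0.47, adjusted p = 0.019, limma). The comparison called 3 of 9 members (Notch3, Jag1 and Hes1), all higher at 3d, where 23.0% of all genes were called and 17.0% were called higher. Without MABs-allo replicate 1 of 3d, the library at 11907, Hes1 was at 1.17 with an adjusted p of 0.0831. In MABs-allo-VEGF the difference was 0.79 (SE 0.47, adjusted p = 0.25) and without the 2 samples low in epithelial markers 1.29 (SE 0.35, adjusted p = 0.0139). Saline gave 0.20 (SE 0.47, adjusted p = 0.866).

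Heyl, a Hey-family repressor known from mural cells and smooth muscle, went the other way with time in MABs-allo-VEGF. It was at 108, 242, 131 and 200.4 normalized counts at 3d and at 395, 368, 264 and 306 at 7d, with every 7d sample above every 3d sample. The log2 fold change of 3d against 7d was -1.02 (SE 0.33, adjusted p = 0.0311, limma), close to the fold required. The MABs-allo-VEGF comparison of days called 2 of 9 members (Jag1 higher at 3d and Heyl lower), where 15.3% of all genes were called. Leaving out single MABs-allo-VEGF samples (replicates 1 or 3 of 3d, or 6, 7 or 12 of 7d) gave -1.05 to -0.83 with adjusted p of 0.0529 to 0.103, which ended the call. Heyl was also not called with DESeq2, with a pseudocount of 5 or with only the groups compared. In saline Heyl was 182 to 219 at 3d and 202 to 301 at 7d, and in MABs-allo 85.2 to 312 at 3d and 172 to 285 at 7d. At 7d MABs-allo-VEGF vs saline gave 0.48 (SE 0.33, adjusted p = 0.857) and MABs-allo-VEGF vs MABs-allo 0.66 (SE 0.33, adjusted p = 1). Vs saline at 3d, Heyl gave -0.19 (SE 0.33) in MABs-allo and -0.28 (SE 0.33) in MABs-allo-VEGF, and the first of these changed sign with sample quality weights and without MABs-allo replicate 1.

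Hey1, known as an endothelial target of Notch, was hardly detected. It had 1 read in MABs-allo replicate 2 of 3d (5.47 normalized counts), 3 reads in saline replicate 5 of 7d (9.43 normalized counts) and 0 reads in the other 22 samples. A count of 0 allows up to 3 reads, or 5.0 to 27.7 normalized counts depending on the sample. Hey1 was not tested.

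Of the ligands, Jag1, a Jagged ligand known from epithelium and vessel wall, was higher at 3d than at 7d in both cell-treated groups. In MABs-allo it was at 2932, 1335, 886 and 1139 normalized counts at 3d and at 697, 509.9, 422 and 415 at 7d. In MABs-allo-VEGF it was at 1244, 683, 1483 and 1135 at 3d and at 555, 456, 441 and 671 at 7d. Neither pair of groups overlapped, although the lowest MABs-allo-VEGF sample of 3d (683) was next to the highest of 7d (671). The log2 fold change was 1.5 (SE 0.33, adjusted p = 0.00153, limma) in MABs-allo and 1.06 (SE 0.33, adjusted p = 0.0235) in MABs-allo-VEGF. The MABs-allo-VEGF call was lost without replicate 1 or 3 of 3d or replicate 7 or 11 of 7d, at 0.92 to 1.0 with adjusted p of 0.0582 to 0.0841. That call was also lost with TMM scaling and with edgeR.

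In saline Jag1 was at 1191, 482, 1033 and 788 normalized counts at 3d and at 426, 655, 659.8 and 491 at 7d, so that replicate 8 of 3d lay among the 7d samples. The difference was 0.59 (SE 0.33, adjusted p = 0.337, limma). That comparison called 0 of 9 members with limma, DESeq2 and edgeR and gave 0 with an unadjusted p under 0.05. Over all genes the limma shares were 3.19% and 18.8%. Vs saline at 3d, Jag1 was 0.77 (SE 0.33, adjusted p = 0.107) in MABs-allo and 0.40 (SE 0.33, adjusted p = 0.546) in MABs-allo-VEGF. The interaction with day was 0.90 (SE 0.46, adjusted p = 0.384) for MABs-allo and 0.47 (SE 0.46, adjusted p = 0.828) for MABs-allo-VEGF.

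Dll4, the Delta-like ligand of sprouting endothelium, had a negative change at 3d after either cell type that did not pass the test in all samples. It was at 138, 317, 322 and 176 normalized counts in saline, 107, 82.1, 148 and 114 in MABs-allo and 70.3, 100, 70.6 and 227 in MABs-allo-VEGF. Saline replicate 6 lay inside the MABs-allo range and MABs-allo-VEGF replicate 4 inside the saline range, and these are the libraries that stand apart on the principal component. The log2 fold change vs saline was -1.01 (SE 0.42, adjusted p = 0.101, limma) in MABs-allo and -1.11 (SE 0.42, adjusted p = 0.165) in MABs-allo-VEGF. The 3d comparison of MABs-allo-VEGF with saline called 0 of 9 members with limma, DESeq2 and edgeR, and 0.0307% of all genes with limma. At an unadjusted p under 0.05 there were 2 members (Notch3 and Dll4) and 17.9% of all genes.

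With the 2 libraries left out, Dll4 fell by 1.24 on the log2 scale in MABs-allo (adjusted p = 0.028) and by 1.71 in MABs-allo-VEGF (adjusted p = 0.00821), past the threshold in both. The p-values carry the limit given above for this choice of libraries. Members called were then 3 of 9 (Notch3, Dll4 and Hes1) in MABs-allo, where 18.1% of all genes were, and 2 of 9 (Notch3 and Dll4) in MABs-allo-VEGF, where 13.6% were. The interaction of MABs-allo-VEGF with day for Dll4 was -1.49 (SE 0.59, adjusted p = 0.551) in all samples and -2.10 (adjusted p = 0.0409) without the 2 libraries, where 3.59% of all genes were called. At 7d Dll4 was 97.5 to 318 in saline, 86.7 to 224 in MABs-allo and 173 to 276 in MABs-allo-VEGF, and the changes vs saline did not pass the test. MABs-allo-VEGF at 3d against 7d gave -1.03 (SE 0.42, adjusted p = 0.0872), and without MABs-allo-VEGF replicate 4 of 3d -1.40 (adjusted p = 0.0149).

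Among the cell type markers, endothelial ones were lower along with Dll4 in MABs-allo. The summed level of 9 endothelial markers was 4856 to 9651 normalized counts in MABs-allo at 3d and 8918 to 15447 in saline at 3d, with none of the 9 at 0 in any sample. In MABs-allo vs saline at 3d, 8 of the 9 had a negative log2 fold change (median -0.97) and 4 (Tie1, Emcn, Esam and Cldn5) were called lower, but 0 without saline replicate 8 (median -0.82). Macrophage, Schwann, adipocyte, fibroblast and erythroid markers had lower medians in the same comparison (-1.77, -1.75, -1.74, -1.59 and -1.06). In MABs-allo-VEGF 8 of the 9 endothelial markers were negative, with a median of -0.53 and 0 called. The share of the Dll4 difference that goes with endothelial RNA was not tested. MABs-allo-VEGF replicate 2 of 3d combined an endothelial sum of 14960.3 with Dll4 at 100. The genes most like Dll4 over the 24 samples were Thra (Pearson r = 0.83), Qsox1 (0.81) and Galnt18 (0.81).

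Dll1, the Delta-like ligand known from satellite cell niches and epithelia, was a low-count gene, with 6 to 57 reads per sample. At 3d it was at 72.3, 27.4, 46.5 and 84.5 normalized counts in saline, 128, 104, 92.3 and 59.7 in MABs-allo and 103, 117, 106 and 35.6 in MABs-allo-VEGF. Against saline its log2 fold change was 0.79 (SE 0.57, adjusted p = 0.354) in MABs-allo and 0.62 (SE 0.57, adjusted p = 0.605) in MABs-allo-VEGF, with groups that overlapped. At 7d it was 20.1 to 69.2 in saline, 41.7 to 87.2 in MABs-allo and 152, 163, 24.8 and 53.6 in MABs-allo-VEGF. The samples at 152 and 163 were those labelled recovered, and they lay above the other 10 samples of 7d.

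A comparison of the 2 recovered urethras with the other 10 of 7d, chosen after seeing the data, called 0 of 9 members with limma, DESeq2 and edgeR, and 0 of 15285 genes with limma. At an unadjusted p under 0.05 there were 2 members, Dll1 and Heyl. Dll1 gave 1.75 (SE 0.53, unadjusted p = 0.00446 and adjusted p = 0.877, limma) and Heyl, at 395 and 368 against 172 to 306, gave 0.71 (SE 0.27, adjusted p = 0.933). Both were higher without overlap, where 1.58% of genes were. Both recovered urethras belong to MABs-allo-VEGF, as do 2 of the other 10. Within the 4 MABs-allo-VEGF samples of 7d, Dll1 gave 2.08 (SE 0.57, adjusted p = 0.898, limma) and Heyl 0.42 (SE 0.29, adjusted p = 0.898, limma).

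Jag2, a Jagged ligand of epithelia, showed no called change. At 3d it was at 320.2 to 596 normalized counts in saline, 240.0 to 759.7 in MABs-allo and 233 to 487 in MABs-allo-VEGF, and at 7d at 453 to 579, 303 to 563 and 239 to 536 in the same order. Vs saline at 3d the log2 fold change was -0.17 (SE 0.32) in MABs-allo and -0.32 (SE 0.32) in MABs-allo-VEGF, and both turned to about 0 (0.0012 and 0.017) without the samples low in epithelial markers.

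**Figure D3:**
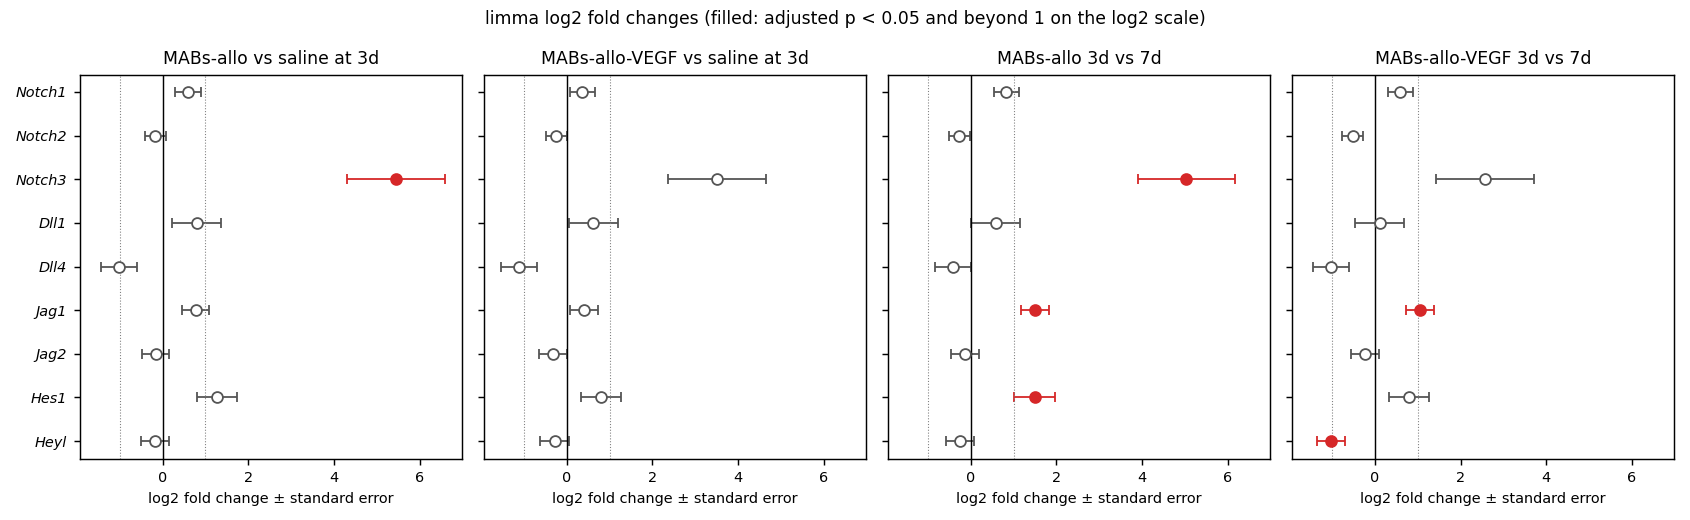
log2 fold change ± SE (limma, horizontal axis) of the 9 tested members in MABs-allo vs saline and MABs-allo-VEGF vs saline at 3d, and in 3d vs 7d of both cell-treated groups. Filled red points are called, namely Notch3 in the first panel, Notch3, Jag1 and Hes1 in the third, and Jag1 and Heyl in the last. Dotted lines mark the fold required.

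MABs-allo-VEGF and MABs-allo were not separated by any member. At 3d 0 of 9 members were called with limma, DESeq2 and edgeR, and 0 had an unadjusted p under 0.05. Over all genes the limma shares were 0.00614% and 6.13%. All 9 log2 fold changes were negative, where 46.7% of all genes were positive, and these values share the MABs-allo samples, among them the high replicate 1. Jag1 gave -0.37 (SE 0.33), Hes1 -0.47 (SE 0.47) and Dll4 -0.09 (SE 0.42), and the sign of Hes1 and Dll4 changed under other settings. At 7d the 3 comparisons between treatments called 0 of 9 members each with limma, DESeq2 and edgeR, and 0 with an unadjusted p under 0.05. Of all genes limma called 0%, and 6.23%, 6.34% and 2.78% had an unadjusted p under 0.05 with limma.

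Notch1, Hes1 and Jag1 followed each other over the 24 samples. The Pearson correlation was 0.94 for Notch1 with Hes1, 0.91 for Notch1 with Jag1 and 0.85 for Jag1 with Hes1, as a description of samples that share groups and differ in tissue makeup. Among the genes most like them were Mecom and Myof for Notch1 (0.93 each), Arap2 and Mecom for Hes1 (0.95 and 0.94) and Cep162 and Cep57 for Jag1 (0.92 and 0.90). Heyl ran against Notch1 (-0.70) and Hes1 (-0.63), and Dll4 went with Notch2 (0.69). MABs-allo replicate 1 of 3d was the highest of the 24 samples in Notch1, Jag1, Jag2, Hes1 and Notch3, and the lowest in Heyl. That sample had 125928 summed epithelial marker counts, the highest of 3d, and 4856 endothelial ones, the lowest of the 24. Its mural (5659), fibroblast (54564.5), macrophage (1022) and adipocyte (0) sums were also the lowest of the 24. The part of tissue makeup in its Notch values was not tested.

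The rest of the pathway was examined in a list of 54 other Notch genes, of which 52 were in the table and 45 were tested. In MABs-allo vs saline at 3d, 7 rose and 4 fell, against 9.40% and 2.86% of all genes, with a median log2 fold change of 0.37 against 0.07 over all genes. Notch4, the endothelial Notch receptor, fell from 141, 427, 218 and 264 normalized counts in saline to 71.0, 87.5, 73.9 and 65.1 in MABs-allo, with no overlap (log2 fold change -1.70, SE 0.40, adjusted p = 0.0117, limma). It was at 157, 158, 95.9 and 236 in MABs-allo-VEGF (-0.65, SE 0.40, adjusted p = 0.407). Notch4 thus shared the direction of Dll4 and of the endothelial markers.

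Among the proteases and their subunits, Aph1b of gamma-secretase fell, from 51.6 to 89.3 in saline to 0 to 32.5 in MABs-allo (-2.80, SE 0.69, adjusted p = 0.0137). Of the glycosyltransferases that modify Notch, Mfng fell (-1.20, SE 0.35, adjusted p = 0.0268), with 258 to 592 in saline and 135 to 184 in MABs-allo.

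Among the regulators, Numb, an endocytic antagonist of Notch, rose from 10.7 to 31.0 normalized counts in saline to 54.2 to 231 in MABs-allo (2.65, SE 0.76, adjusted p = 0.0248). Itch, an E3 ubiquitin ligase that acts on Notch, rose from 11.8 to 282 in saline to 418 to 895 in MABs-allo (2.97, SE 0.68, adjusted p = 0.0102). Lfng, Maml2, Mib1 and Snw1 were also called higher and Numbl lower, with groups that overlapped. The 11 calls became 2 without saline replicate 8, 7 without saline replicate 9 or 10, 5 without MABs-allo replicate 1 or 3, and 0 with only the 2 groups in the fit.

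After MABs-allo-VEGF, 0 of the 45 were called against saline at 3d with limma and edgeR and 3 with DESeq2. With limma 14 had an unadjusted p under 0.05. Over all genes limma called 0.0307% and gave 17.9% an unadjusted p under 0.05. No share of all genes is given for DESeq2 or edgeR, so the 3 calls cannot be set against these shares. Without the 2 libraries apart, 9 were called higher and 2 lower, where 13.6% of all genes were called, among them Itch (3.54, adjusted p = 0.00187) and Rbpj, the DNA-binding partner of Notch (1.87, adjusted p = 0.00335). Without saline replicate 6 alone or MABs-allo-VEGF replicate 4 alone, 6 were called.

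**Figure D4:**
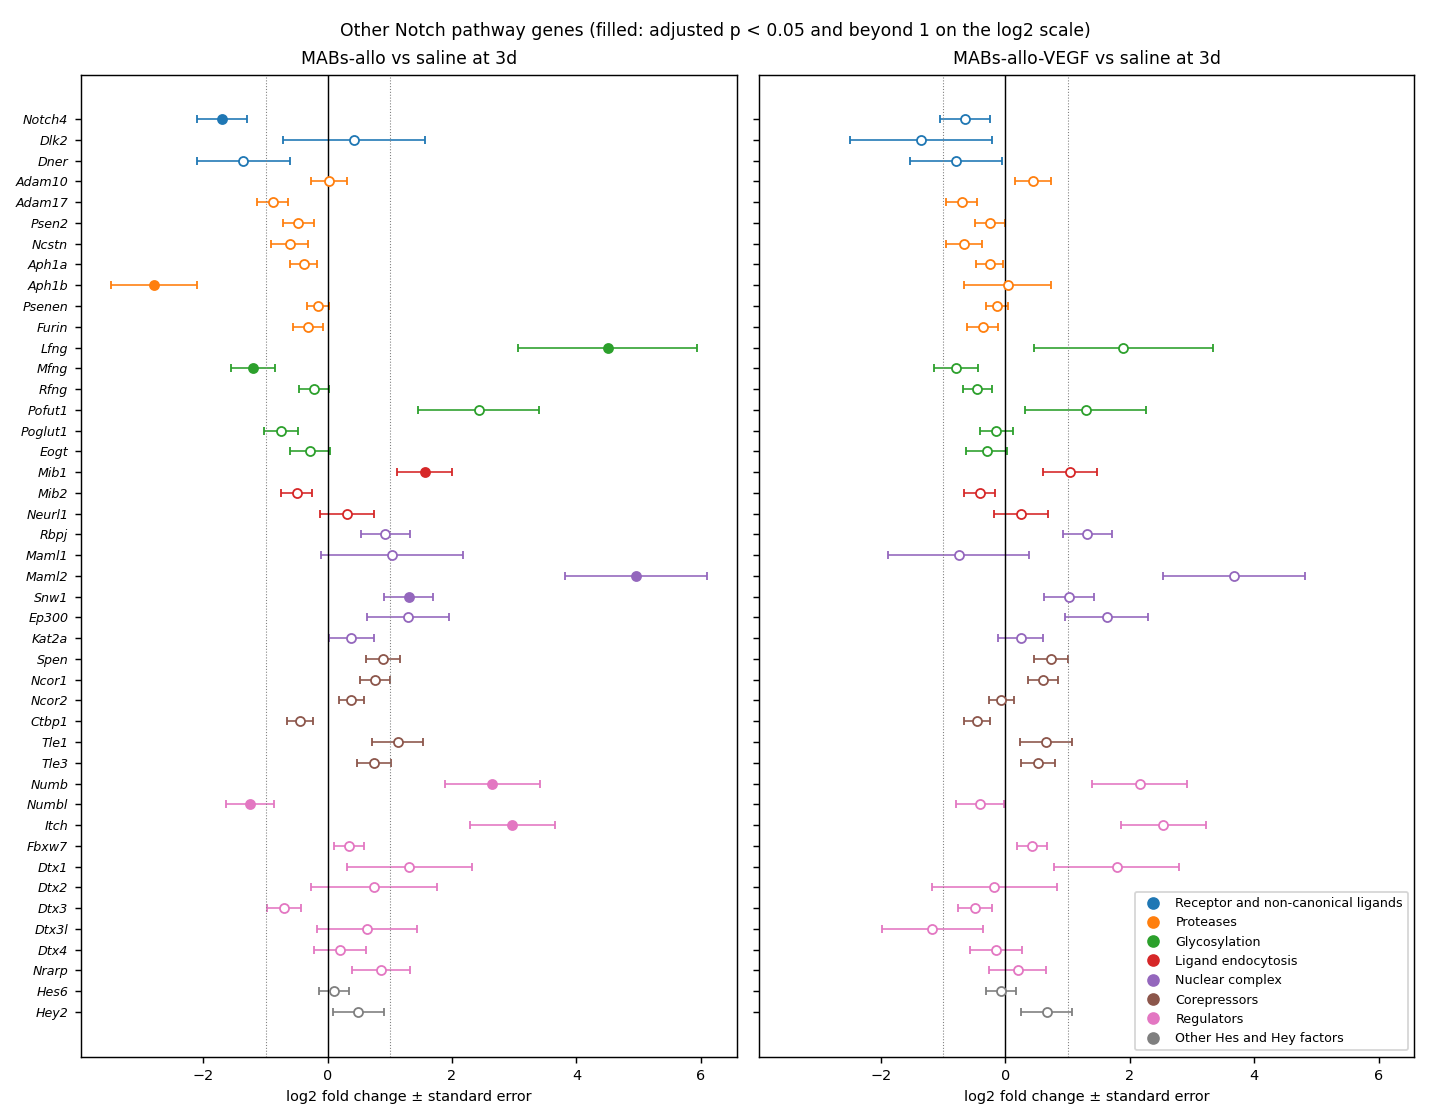
log2 fold change ± SE (limma) of 44 of the 45 other Notch pathway genes tested, coloured by role, in MABs-allo vs saline (left) and MABs-allo-VEGF vs saline (right) at 3d. Filled points are called, 6 higher and 4 lower on the left and 0 on the right. Both panels share the saline samples.

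In each cell-treated group, more of the list was called between 3d and 7d than against saline at 3d. The same held over all genes, at 23.0% against 12.3% in MABs-allo and 15.3% against 0.0307% in MABs-allo-VEGF. In MABs-allo 12 of the 45 were higher and 3 lower at 3d, against 17.0% and 6.05% of all genes. Maml2, a coactivator of the RBPJ complex, was at 156, 181, 231 and 21.7 normalized counts at 3d and at 0 to 6.62 at 7d (6.06, SE 1.14, adjusted p = 0.000499). Lfng, a fringe glycosyltransferase, was at 10.8 to 351 and 0 to 3.34 (5.65, SE 1.44). Itch (4.07, SE 0.68) and Numb (3.55, SE 0.76) were higher at 3d, and Aph1b was lower (-3.23, SE 0.69). Folds of Maml2 and Lfng depend on the pseudocount, since their 7d samples are at or near 0.

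In MABs-allo-VEGF 7 were higher and 0 lower at 3d, against 13.1% and 2.24% of all genes. Rbpj was at 1011, 1308, 1135 and 672 normalized counts at 3d and at 326, 143, 99.3 and 211 at 7d (2.50, SE 0.39, adjusted p = 0.000258). Numb (5.07, SE 0.76), Maml2 (4.79, SE 1.14), Itch (4.60, SE 0.68) and the coactivator Ep300 (1.93, SE 0.66) were also higher. In MABs-allo Rbpj was at 674 to 886 at 3d and at 199 to 291 at 7d (1.57, SE 0.39, adjusted p = 0.00437). In saline 0 of the 45 were called between days with limma, 4 with DESeq2 and 2 with edgeR, and 7 had an unadjusted p under 0.05, against 3.19% and 18.8% of all genes with limma. The 3 comparisons between treatments at 7d called 0 of the 45 with limma, DESeq2 and edgeR, and limma called 0% of all genes. In the list 1 or 2 had an unadjusted p under 0.05 with limma, against 2.78% to 6.34% of all genes.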

How the data were processed

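Urethral RNA was made by the authors into QuantSeq 3′ mRNA libraries, which count transcript ends, so levels are compared within a gene only. The authors trimmed adapters, used HISAT2 for alignment to Rnor6.0 without reads of several positions, and counted per gene with HTSeq. The deposited signal is a normalized gene count for 32883 genes, and the authors describe normalization with DESeq2. Which samples set the size factors is not stated. One read is worth 1.67 to 9.23 normalized counts depending on the sample, 100% of the values are whole numbers of reads (tolerance 0.001), and these reads were recovered. Samples held 2170695 to 10166052 reads (median 5246798).

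Groups and replicates come from the labels. Values were tested as log2(normalized count + 1) in limma (3.58.1, R 4.3.3), using two-sided moderated tests with a mean-variance trend, in 1 fit of the 6 groups and 24 samples, on the 16287 genes with a mean of at least 2. p-values were adjusted by Benjamini-Hochberg over all genes tested. Fold changes are on the log2(value + 1) scale, on which the change of low genes depends on the pseudocount. Recovered and other urethras were compared in the 12 samples of 7d.

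Alternatives were a pseudocount of 5, no filter, a mean of at least 10, TMM and quantile scaling, sample quality weights, DESeq2 1.42.0 and edgeR 4.0.16 (quasi-likelihood test) on the recovered reads, the replicate number as a block, only the groups compared, 2 libraries left out and each sample left out. Leaving out the 2 libraries low in epithelial markers and the comparison of recovered urethras were chosen after seeing the data. The members and gene lists were chosen with earlier results of these data known. The text names all members, and of the other pathway genes the 6 with the largest called fold change whose groups did not overlap in a comparison, except 1 gene that is counted but not reported here. Others it names were chosen after their values were seen. Similar genes are the 3 with the highest Pearson correlation among those with a mean of at least 50, for members with a mean of at least 20.

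In simulated data with 200 of 12755 genes changed, limma recovered 180 with 14 false calls, edgeR 180 with 10 and DESeq2 176 with 19. Whether these values hold for the 16287 genes of the urethral samples was not tested. Promoters are RefSeq entries for GRCr8, with 8 of 10 members matched by symbol. The files use another build, so no position of a count is given. Exact counting intervals hold 95% and cover counting error only.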

Additional observations from a re-analysis of the deposited data

Results flagged for a closer look

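Of 60 gene and group combinations (4 samples each), 9 had 1 sample whose gap to its neighbour exceeded Dixon's critical share of the group's range. Chance gives about 1 in 20 for independent normal samples. Counts near 0 and genes that follow each other are not such samples, so the 9 cannot be set against that share. In MABs-allo at 3d, replicate 1 stood out in Notch1 (4913 normalized counts against 2073 to 2235) and in Hes1 (11907 against 4481 to 5373). Saline replicate 8 of 3d stood out in Hes1, at 945 against 3339.6 to 3808. At 7d, saline replicate 2 was apart in Notch1 (1809.7 against 1421 to 1485), saline replicate 1 in Hes1 (1860.3 against 2322 to 2384) and MABs-allo replicate 7.2 in Notch1 (1970.0 against 1307 to 1414). The remaining 3 rest on 1 to 3 reads in a group otherwise at 0, namely Notch3 in saline replicate 5 of 7d (3.14), Hey1 in MABs-allo replicate 2 of 3d (5.47) and Hey1 in saline replicate 5 of 7d (9.43).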

How the results depend on the processing

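Of 128 member counts under alternatives that leave out no single sample, 115 stayed within 1.5 times the main count. Most comparisons had a main count of 0, so many of the 115 are counts of 0 that stayed at 0. A count also does not show whether the same members were called. Of 80 group means of members, 60 under TMM scaling and 20 without the 2 libraries apart, 80 moved by less than 1 SD of the group, although that of Notch3 in saline at 3d went from 4.32 to 1.17 normalized counts without those libraries. In MABs-allo vs saline at 3d, 1 member was called, against 2 with quantile normalization, 0 with only the groups compared and 3 with the 2 libraries apart left out. For MABs-allo-VEGF against saline at 3d the count of 0 became 2 with sample quality weights and 2 without these libraries. MABs-allo-VEGF at 3d vs 7d had 2, against 1 with a pseudocount of 5, TMM scaling, edgeR or only the groups compared, 5 with quality weights and 4 without the libraries. With DESeq2 that count was unchanged, but Notch3 was called in place of Heyl. The MABs-allo-VEGF interaction with day had 0, and 1 with quality weights or without the libraries. Leaving out single samples gave 1 to 3, 0 to 2 and 0 to 3 in these 3 comparisons and 2 to 3 in MABs-allo at 3d vs 7d (3 in all samples). The values that reversed were all near 0. In MABs-allo vs saline at 3d they were Jag2 at 0.0012 without the samples low in epithelial markers and Heyl at 0.036 with quality weights. In MABs-allo-VEGF vs saline Jag2 was 0.017 without the former samples. Between the cell types at 3d Hes1 was 0.22 with quality weights and 0.0304 without the samples low in epithelial markers, and Dll4 was 0.0896 with DESeq2 and 0.14 with edgeR. Without single samples Jag2 (-0.50 to 0.0485) and Heyl (-0.47 to 0.15) in MABs-allo vs saline, and Hes1 (-0.85 to 0.0304) and Dll4 (-0.47 to 0.0885) in MABs-allo-VEGF vs MABs-allo, changed sign. The cause was not tested. Among the other pathway genes, 11 calls in MABs-allo vs saline at 3d became 0 with only the groups compared and 2 without the samples low in epithelial markers, with 2 to 14 without single samples. The 0 calls in MABs-allo-VEGF vs saline became 8 with quality weights, 3 with DESeq2 and 11 without the libraries apart. With the replicate number as a replicate block, the 3d comparison of the cell types called 0 members, as without it. Deviations of same-numbered samples correlated at 0.22, 0.15, 0.07 and 0.25, and 6 of 8 samples correlated best with their own number, a hint of pairing from the data. One correlation was under 0.1 and the labels name no shared source, so the samples were not treated as paired. Notch3 at 7d and Hey1 had at most 3 reads in any sample, so their values rest on few reads. The part of depth in this was not tested.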
